A study of Mus musculus with 35 samples.

Results

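Nuclear-encoded genes of the mitochondrial respiratory chain were followed in whole mouse lung across a series of styrene concentrations. The members were chosen by a rule on gene symbols, set with earlier results of these data known. They are the genes whose probe sets carry exactly 1 symbol in the platform annotation, where that symbol starts with Nduf, Uqcr, Cox4i, Cox5, Cox6, Cox7, Cox8 or Atp5, or is Sdha, Sdhb, Sdhc, Sdhd or Cyc1. This gave 88 genes, with 149 probe sets, of the 17097 genes with such a probe set. Each gene is represented by its brightest probe set by the mean of the 35 arrays. The choice by name took in 7 assembly factors of complex I, whose symbols start with Ndufaf and which are not subunits of the finished complex. It also took in Ndufs5-ps, named as a pseudogene, whose signal is uncertain because it is nearly identical in sequence to its parent gene. Without these, 80 genes remain for complexes I (26 accessory and 6 core subunits), II (4), III (8), IV (19) and V (17). Ndufa4 and Ndufa4l2 are counted with complex IV, to which Ndufa4 is now assigned.

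The mice were adult males of the outbred CD-1 stock and breathed styrene at 1, 5, 10, 20, 40 or 120 ppm, or air alone (0 ppm), with 5 mice in each of the 7 groups. The labels name no allele, and as far as they say the groups differ by the concentration of styrene alone. The labels disagree on the exposure, which is 6 hours on 1 day in the titles, the protocol and the design text, and 5 days in the series title and the sample characteristics. Lungs were taken on the morning after the last exposure, and 1 array was made from each mouse.

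The respiratory chain passes electrons from NADH through complex I, or from succinate through complex II, to complex III, by cytochrome c to complex IV, and so to oxygen. Complexes I, III and IV pump protons across the inner mitochondrial membrane, and complex V, the ATP synthase, uses the gradient to make ATP. Most subunits are encoded in the nucleus, and complexes I, III, IV and V also hold subunits encoded by mitochondrial DNA, of which none was measured here. Several complex IV subunits come in forms that differ between tissues, with Cox6a2, Cox7a1 and Cox8b known from heart, skeletal muscle or brown fat and Cox4i2 known from lung. Nuclear respiratory factor 1 is known to bind the promoters of many respiratory chain genes.

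The promoters were therefore searched for the core of the site of that factor, because it is the sequence these genes are best known to share. The 250 bases before the start listed first for each gene were read from the RefSeq promoter table (GRCm38.p6), which matched 70 of the 88 members. The letters GCGCATGC, on either strand, were in 9 of the 70 (12.9%), against 3.60% of the promoters of 13514 genes on the array. An ETS core, CCGGAAGT, was in 2 of 70 (2.86%, against 4.45%), and a YY1 core, AAGATGGC, was in 0 of 70 (against 1.77%). A match is a description of the letters and not a binding site. The 120 bases before the start of 4 members with a match and opposite changes are printed, with the matched letters in capitals. Ndufaf4 (chr4:24897963-24898082, plus strand) encodes an assembly factor of complex I, Sdhb (chr4:140961151-140961270, plus strand) the iron-sulfur subunit of complex II, Atp5g2 (chr15:102671048-102671167, minus strand) a form of the c-ring subunit of complex V, and Ndufa11 (chr17:56717642-56717761, plus strand) an accessory subunit of complex I.
Ndufaf4: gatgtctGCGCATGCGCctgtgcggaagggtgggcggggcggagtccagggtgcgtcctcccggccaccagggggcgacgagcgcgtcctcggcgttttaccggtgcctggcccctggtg
Sdhb: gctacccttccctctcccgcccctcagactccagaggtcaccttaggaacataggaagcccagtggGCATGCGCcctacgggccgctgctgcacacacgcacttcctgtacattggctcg
Atp5g2: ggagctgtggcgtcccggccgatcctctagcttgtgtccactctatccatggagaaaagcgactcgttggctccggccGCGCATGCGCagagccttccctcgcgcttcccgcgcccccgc
Ndufa11: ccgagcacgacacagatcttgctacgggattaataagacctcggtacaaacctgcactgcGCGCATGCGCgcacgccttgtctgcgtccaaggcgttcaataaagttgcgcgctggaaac
The matched letters read the same in overlapping copies on both strands in Ndufaf4, Atp5g2 and Ndufa11. The choice of these 4 was made with their values known.

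Arrays from the air and 1 ppm groups stood apart from those of 5 to 120 ppm in ways that touch all genes. The interquartile range of the deposited log2 values was 2.94 to 3.16 in air, 2.66 to 2.97 at 1 ppm and 3.28 to 3.54 from 5 to 120 ppm, with no overlap. The first principal component held 67.3% of the variance. No batch is given in the labels, and a batch aligned with the groups cannot be told apart from exposure. The tissue label held: the mean of 3 alveolar type 2 markers had group means of 13.06 to 13.13 and that of 3 club cell markers 13.26 to 13.42. Even so, 1 of the 3 type 2 markers was called higher than in air at each concentration from 5 to 120 ppm. At 5 and 10 ppm 1 of the 3 club cell markers was called higher too. Between 28.6% and 29.8% of all genes were called higher at these concentrations. Markers of other lung cells moved in both directions at 5 ppm and at 120 ppm. At either concentration 2 of 4 alveolar type 1 markers were higher and 2 lower, and 1 of 3 endothelial markers was higher and 1 lower. The shares of all genes were 29.6% higher and 47.4% lower at 5 ppm, and 29.8% and 39.1% at 120 ppm. Aqp5, a water channel of type 1 cells, averaged 11.06 at 5 ppm and 11.25 at 120 ppm, against 12.02 in air. The median difference of the 4 type 1 markers from air was 0.19 at 5 ppm and 0.20 at 120 ppm. Of the endothelial markers, Cldn5 averaged 10.94 and 11.02, against 11.96 in air, and Pecam1 10.47 and 10.28, against 9.12 in air. The part of these cells in the values of the members was not tested. Differences are given in log2 units, where 1 unit is a factor of 2, with the standard error of a limma fit to all 17097 genes, and a gene counts as called where its p, adjusted over all of them by Benjamini and Hochberg, is under 0.05. The 6 comparisons with air share the same 5 air mice and are not independent.

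A library of the 120 ppm group stood apart in these genes. The mean of the 88 members was 10.21 in mouse 3, against 9.61, 9.65, 9.57 and 9.63 in mice 1, 2, 4 and 5 of that group. Mouse 3 had the highest value of its group for 84 of the 88 members (95.5%), against 25.4% of all genes. Its value lay above the mean of the other 4 mice for 87 members, with a median difference of 0.53. In the same mouse Ucp1, the uncoupling protein of brown fat, was 11.39, against 3.75 to 4.91 in the other 4, and the mean of 5 brown fat markers was 7.21, against 3.96 to 4.46. The mean of 7 cardiac muscle markers was 10.73 in mouse 3, against 4.79 to 8.11, and that of 3 fat markers 9.04, against 4.95 to 7.29. The part of other tissue in the values of mouse 3 was not tested. The counts over all members and some genes of complex IV are therefore given with and without it. Other values and the counts by complex at 120 ppm include mouse 3.

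**Figure D1:**
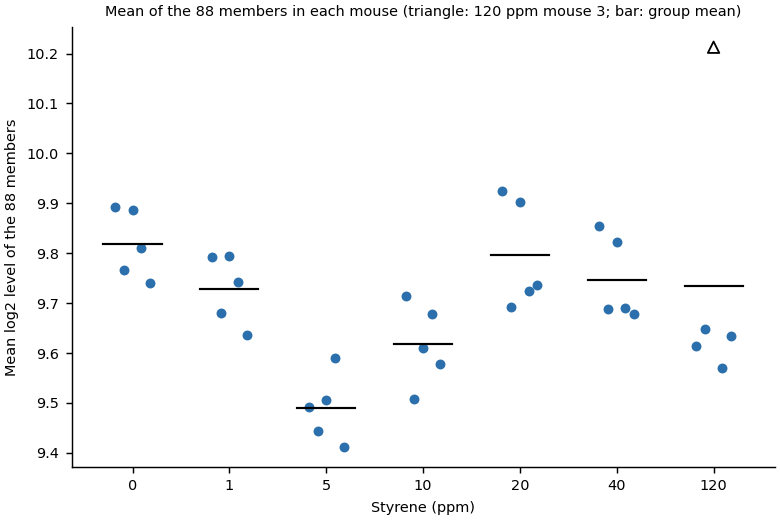
Mean log2 level of the 88 members in each mouse (points, 5 a group) by styrene concentration in ppm, with bars for group means and a triangle for mouse 3 of the 120 ppm group. Mouse 3 lies at 10.21, above the 9.57 to 9.65 of the other 4 mice at 120 ppm, and the 5 ppm mice lie at 9.41 to 9.59, all below the air mice at 9.74 to 9.89.

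At 120 ppm the members moved in both directions, and every complex from I to V held called members that rose and called members that fell. In the comparison with air 27 of the 88 rose, 41 fell and 20 did not pass the test. Over all genes 29.8% rose and 39.1% fell. The median difference of the members was -0.22, beside -0.15 over all genes. The groups did not overlap for 42 of the 88 members, beside 50.7% of all genes. Without mouse 3 of the 120 ppm group 24 members rose and 50 fell, beside 29.4% and 38.1% of all genes, the median was -0.29 beside -0.16, and the groups did not overlap for 70 members, beside 54.5% of all genes. With the array axis, the main direction of spread between mice of the same group, as a covariate, 32 members rose and 4 fell, beside 12.6% and 11.7% of all genes. The axis did not overlap between air and 120 ppm, so that fit is extrapolated. With the quartile range as covariate 21 rose and 16 fell, beside 13% and 16.5% of all genes. The 41 members that fell with mouse 3 included also fell without it, and 24 of the 27 that rose did so. Atp5e, Ndufb10 and Uqcr10 lost their rises without it. The members that fell only without it were Atp5b, Atp5k, Cox6a2, Cox7a1, Cox7a2, Cox8b, Ndufa10, Ndufa6 and Ndufv3.

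**Figure D2:**
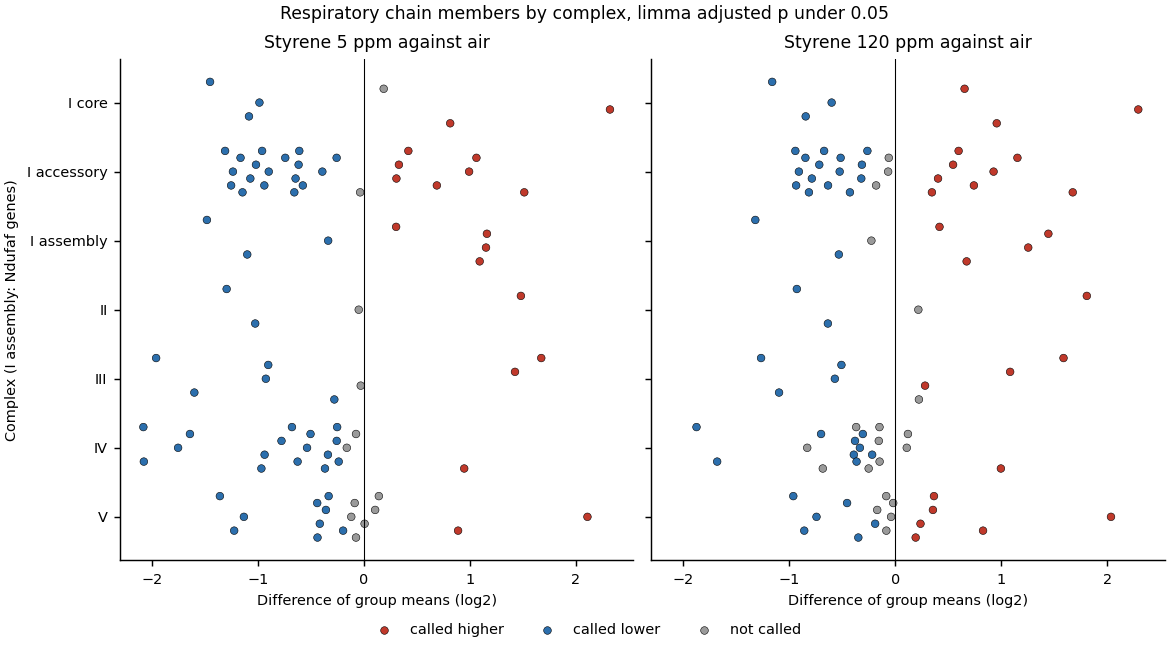
Difference from air in log2 units (x axis) of each member, by complex (y axis), at 5 ppm (left) and 120 ppm (right). Points are genes, red for called higher, blue for called lower and grey for not called. At 120 ppm the values run from -1.87 (Cox4i2) to 2.29 (Ndufs1), and complex IV has 1 red point, Ndufa4, in either panel. Ndufs5-ps is not drawn.

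Among the core subunits of complex I, 3 of 6 rose and 3 fell at 120 ppm, beside 29.8% and 39.1% of all genes. The core subunits carry the flavin and the iron-sulfur clusters. Ndufs1, the largest core subunit, was 8.50, 8.37, 9.09, 8.58 and 8.40 in the 5 mice at 120 ppm, against 6.20, 6.06, 6.30, 6.29 and 6.62 in the air mice. All mice at 120 ppm lay above all air mice, and the difference was 2.29 ± 0.127 (SE, n = 5 each), or 4.90-fold (limma adjusted p = 1.36e-15). Ndufs7, which holds the cluster next to the ubiquinone site, was 9.88, 10.08, 10.47, 9.85 and 9.96 at 120 ppm, against 11.58, 11.19, 11.18, 11.12 and 10.97 in air. Its groups did not overlap either, in the opposite direction, with a difference of -1.16 ± 0.101 (adjusted p = 9.47e-12).

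Of the 26 accessory subunits of complex I, 8 rose, 15 fell and 3 did not pass the test at 120 ppm. The shares of all genes were 29.8% higher and 39.1% lower. Ndufs4, an accessory subunit whose loss causes a mitochondrial encephalopathy in mice, rose by 1.67 ± 0.110 (adjusted p = 3.13e-14). Its values were 7.92, 7.82, 8.53, 7.97 and 8.12 at 120 ppm, against 5.97, 6.62, 6.38, 6.38 and 6.63 in air. All 5 lay above every air mouse. Ndufa11, whose promoter is printed above, fell by 0.91 ± 0.121 (adjusted p = 5.49e-08). It was no longer called lower with the array axis or with the quartile range as covariate.

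Among the 7 Ndufaf assembly factors 4 rose and 2 fell at 120 ppm, beside 29.8% and 39.1% of all genes. Ndufaf5, known from human cells as a hydroxylase that acts on the Ndufs7 protein, was 6.26, 5.79, 6.32, 6.08 and 6.08 at 120 ppm, against 4.76, 4.79, 4.76, 4.22 and 4.77 in air, a difference of 1.44 ± 0.149 (adjusted p = 3.18e-10). The exposed mice all lay above the air mice, whose values were near the air array medians of 4.35 to 4.48. Ndufaf8, known from human cells to work with Ndufaf5, was 9.11, 9.44, 9.69, 9.50 and 9.55, against 11.24, 10.90, 10.71, 10.59 and 10.44 in air, a difference of -1.32 ± 0.133 (adjusted p = 1.93e-10). The partners thus changed in opposite directions. Ndufaf4 rose by 0.67 ± 0.112 (adjusted p = 3.25e-06).

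Complex II has 4 subunits, all encoded in the nucleus, and is also the succinate dehydrogenase of the citric acid cycle. Sdha, the flavoprotein subunit, was 9.78, 9.71, 10.18, 9.79 and 9.72 at 120 ppm, against 7.56, 7.65, 8.20, 8.23 and 8.50 in air. Every exposed mouse lay above every air mouse, with a difference of 1.81 ± 0.126, or 3.50-fold (adjusted p = 9.50e-14). Sdhc, a membrane anchor, was 8.97, 8.98, 9.40, 8.70 and 8.86 at 120 ppm, against 10.02, 10.03, 9.92, 9.90 and 9.66 in air, and fell by 0.93 ± 0.114 (adjusted p = 1.26e-08) with no overlap. Sdhb, the iron-sulfur subunit, was 10.17, 10.23, 11.00, 10.14 and 10.25, against 11.23, 11.03, 10.99, 10.95 and 10.76 in air. It fell by 0.63 ± 0.125 (adjusted p = 4.05e-05), a call lost with the array quartile range as covariate (adjusted p = 0.169), and its sign turned with the array axis (0.18, adjusted p = 0.493). The highest exposed value of Sdhb, which overlapped the air mice, was that of mouse 3. Sdhd, the other anchor, differed by 0.22 ± 0.118, which did not pass the test (adjusted p = 0.0977) and had the opposite sign after quantile normalization (-0.11). Set against 1 ppm in place of air it was called higher at 120 ppm (0.66, adjusted p = 8.20e-06), as it was against air without mouse 1 of the 120 ppm group (0.30, adjusted p = 0.0262).

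In complex III 3 of 8 members rose and 4 fell at 120 ppm, beside 29.8% and 39.1% of all genes. The core subunits Uqcrc1 and Uqcrc2, which stand side by side in the complex, differed in direction. Uqcrc2 was 10.27, 10.40, 10.95, 10.39 and 10.41 at 120 ppm, against 8.36, 8.44, 9.02, 9.21 and 9.45 in air (1.59 ± 0.149, adjusted p = 4.50e-11). Uqcrc1 was 9.23, 9.37, 10.04, 9.13 and 9.32 at 120 ppm, against 11.20, 10.79, 10.65, 10.51 and 10.28 in air (-1.27 ± 0.140, adjusted p = 1.40e-09). Neither gene's groups overlapped. The fall of Uqcrc1 no longer passed with the array axis as covariate (-0.40, adjusted p = 0.140). Cyc1, the cytochrome c1 that hands electrons to cytochrome c, fell by 1.10 ± 0.132 (adjusted p = 8.85e-09). Its values were 9.88, 10.07, 10.82, 9.92 and 9.96 at 120 ppm, against 11.66, 11.29, 11.16, 11.10 and 10.92 in air. With the same covariate its call was lost too (-0.29, adjusted p = 0.278), as was that of Sdhc (-0.30, adjusted p = 0.215).

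In complex V 6 of 17 members rose and 6 fell at 120 ppm, beside 29.8% and 39.1% of all genes. Atp5pb, the b subunit of the peripheral stalk, was 10.02, 9.83, 10.26, 9.93 and 9.95 at 120 ppm, against 7.68, 7.81, 7.91, 8.13 and 8.28 in air. The exposed mice lay above all air mice by a difference of 2.04 ± 0.0980, or 4.10-fold, with the smallest adjusted p of the members (1.52e-16). The c-ring subunit is encoded by 3 genes. Atp5g2 fell by 0.96 ± 0.0824 (adjusted p = 6.42e-12) and Atp5g1 by 0.74 ± 0.142 (adjusted p = 2.56e-05), whereas Atp5g3 rose by 0.19 ± 0.0651 (adjusted p = 0.00954). The call of Atp5g1 was lost with the quartile range as covariate (-0.45, adjusted p = 0.206), and with the array axis its sign turned (0.13, adjusted p = 0.698). The call of Atp5g3 was lost after median centring (adjusted p = 0.0956), with the other groups left out of the fit (0.0709) and with the quartile range (0.0711).

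**Figure D3:**
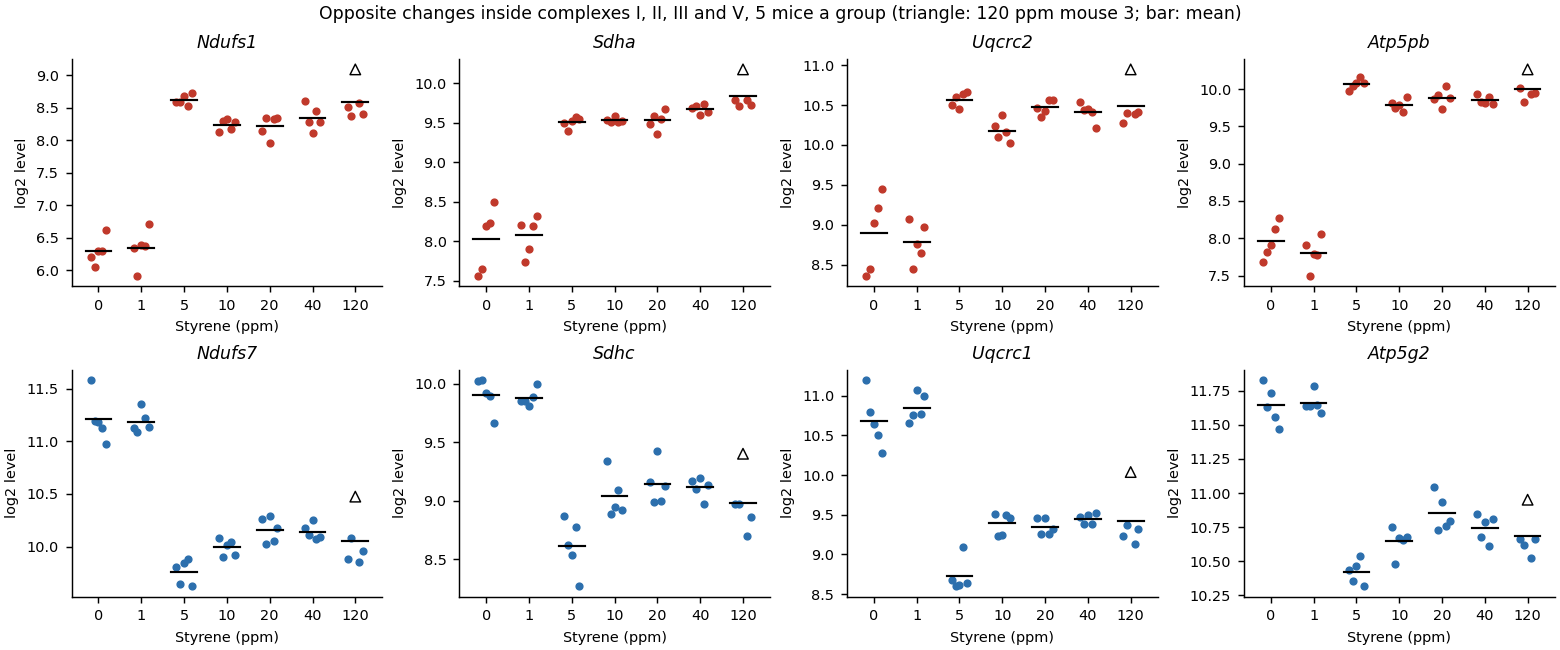
Log2 level in each mouse (points, 5 a group) by styrene concentration in ppm, for a rising member (top, red) and a falling member (bottom, blue) of complexes I, II, III and V. Bars are group means and the triangle is mouse 3 at 120 ppm. Ndufs1 averages 6.29 in air and 6.35 at 1 ppm, and 8.22 to 8.62 from 5 ppm up, whereas Ndufs7 averages 11.21 and 11.19, and 9.76 to 10.16.

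Complex IV had few rises: at 120 ppm 1 of its 19 members rose, 9 fell and 9 did not pass the test. Over all genes 29.8% rose and 39.1% fell. Without mouse 3 Cox6a2, Cox7a1, Cox7a2 and Cox8b fell as well. With the quartile range as covariate 3 of the 19 fell, and with the array axis 1, beside 16.5% and 11.7% of all genes. The member that rose was Ndufa4, at 11.39, 11.39, 11.85, 11.40 and 11.44 at 120 ppm, against 10.17, 10.37, 10.78, 10.53 and 10.63 in air (1.00 ± 0.101, adjusted p = 2.19e-10). Ndufa4l2, its paralog that is known to be induced in hypoxia, went the other way, at 6.12, 6.28, 6.09, 5.68 and 6.23 at 120 ppm, against 8.59, 8.21, 7.71, 7.23 and 7.05 in air (-1.68 ± 0.198, adjusted p = 5.25e-09). Cox4i2, the form of subunit 4 known from lung, was 4.76, 5.26, 5.10, 4.53 and 5.04, against 7.35, 7.23, 6.55, 6.51 and 6.41 in air (-1.87 ± 0.165, or 3.67-fold lower, adjusted p = 1.19e-11). The values of Cox4i2 at 120 ppm were not far above the array medians of that group, 4.45 to 4.50. The widely expressed form, Cox4i1, was 11.75, 11.81, 12.11, 11.72 and 11.82, against 12.81, 12.58, 12.55, 12.39 and 12.37 in air (-0.70 ± 0.0816, adjusted p = 4.28e-09). None of these 4 genes overlapped between the groups. With the array axis as covariate the calls of Ndufa4l2 (-0.45, adjusted p = 0.256) and Cox4i1 (-0.26, adjusted p = 0.121) were lost, and those of Ndufa4 and Cox4i2 (-0.94, adjusted p = 0.00492) held.

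Cox4i2 and Ndufa4l2 are known as genes of pericytes and smooth muscle in lung. Of 7 markers of those cells 5 fell and 1 rose at 120 ppm, beside 39.1% and 29.8% of all genes. Their mean level was 7.30 to 7.69 at 120 ppm, against 7.90 to 8.94 in air. Among them Notch3 fell by 1.45 ± 0.132 and Kcnk3 by 1.46 ± 0.212, whereas Myh11, a smooth muscle myosin, rose by 1.35 ± 0.231. Whether the marker shift takes part in the falls of Cox4i2 and Ndufa4l2 was not tested. In whole lung fewer cells of a type and less RNA per cell cannot be told apart.

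The muscle and brown fat forms of complex IV depended on mouse 3. Cox8b was 7.72, 7.41, 11.24, 7.00 and 6.61 at 120 ppm, against 9.43, 8.15, 8.88, 8.79 and 8.14 in air. Cox7a1 was 6.26, 6.09, 9.64, 5.68 and 5.03, against 8.50, 6.78, 7.55, 7.02 and 7.00 in air. Cox6a2 was 7.53, 7.53, 9.92, 6.98 and 6.77, against 8.85, 7.72, 8.23, 7.94 and 7.83 in air. For each of these genes 4 mice at 120 ppm lay below every air mouse, and mouse 3 lay above every air mouse. With mouse 3 none of them passed the test (Cox8b -0.68, Cox7a1 -0.83 and Cox6a2 -0.37, adjusted p = 0.218, 0.162 and 0.412 by limma). Without it all 3 fell, Cox8b by 1.49 ± 0.310 (adjusted p = 8.84e-05), Cox7a1 by 1.60 ± 0.394 (adjusted p = 0.000637) and Cox6a2 by 0.91 ± 0.317 (adjusted p = 0.0123).

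**Figure D4:**
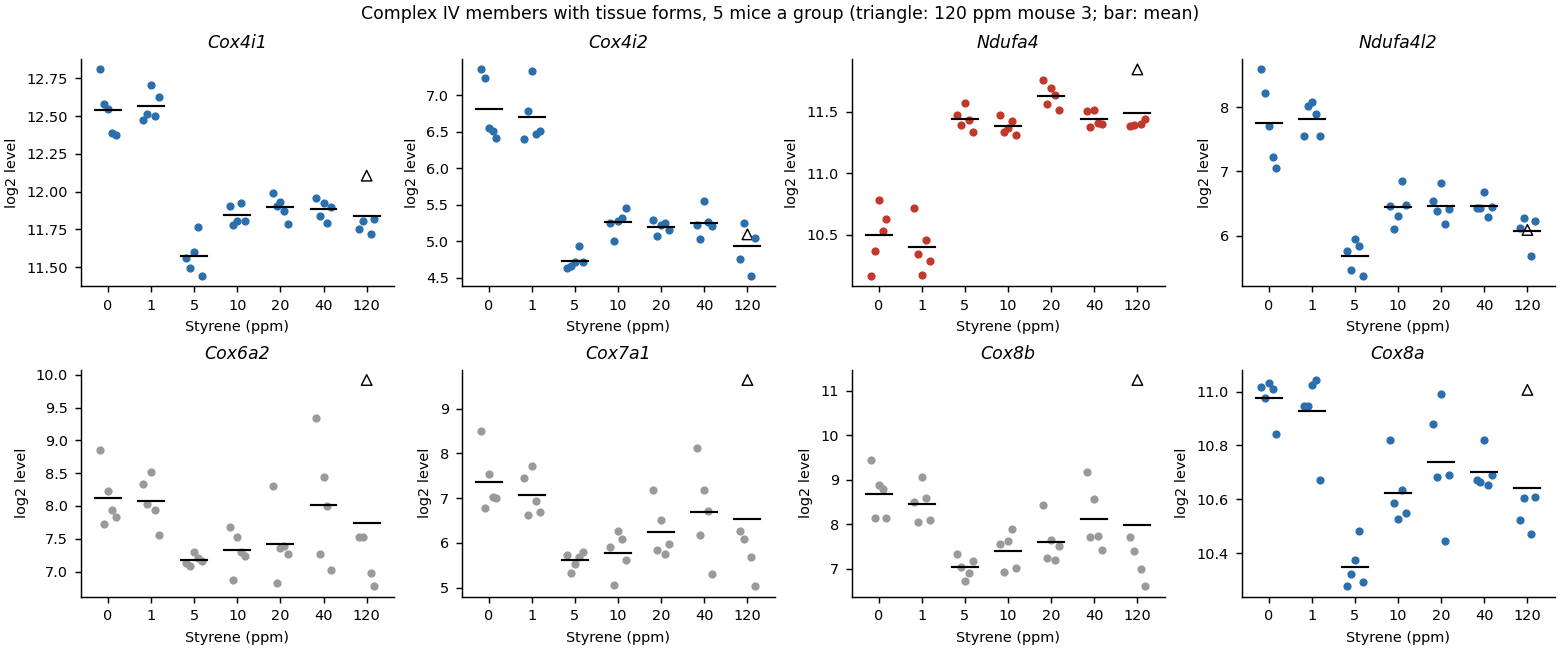
Log2 level in each mouse (points, 5 a group) by styrene concentration in ppm, for 8 complex IV members. Bars are group means and the triangle is mouse 3 at 120 ppm, which lies at 11.24 for Cox8b, 9.64 for Cox7a1 and 9.92 for Cox6a2, above all other mice, while it lies within its group for Cox4i2 and Ndufa4l2.

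The same 3 forms were also high in single mice of other groups whose cardiac markers were high. Mouse 1 at 40 ppm had a cardiac marker mean of 10.51, against 6.33 to 8.59 in the other 4 mice of its group, and it had the highest values of that group for Cox6a2 (9.34), Cox7a1 (8.12) and Cox8b (9.18). Mouse 1 of the air group had a cardiac marker mean of 9.30, against 6.74 to 7.87 in the other air mice, and again the highest Cox6a2 (8.85), Cox7a1 (8.50) and Cox8b (9.43) of its group. The brown fat marker mean of these mice was 4.84 at 40 ppm, against 4.04 to 4.36 in the others of that group, and 4.51 in air, against 4.10 to 4.30. The part of cardiac tissue in these values was not tested. Of the 7 cardiac markers, 0 passed the test at 120 ppm and 1 fell at 5 ppm. Of 6 skeletal muscle markers, whose mean was 5.26 or less in every mouse, 2 fell at 5 ppm and 3 at 120 ppm. Over all genes 47.4% and 39.1% fell. Ckm, the muscle creatine kinase, was 4.86, 4.60, 4.04, 4.82 and 5.23 at 5 ppm and 4.95, 5.58, 8.06, 4.93 and 3.87 at 120 ppm, against 9.29, 6.38, 7.26, 6.59 and 6.50 in air. It was highest in the same mouse 3 at 120 ppm and mouse 1 in air, and it fell at 5 ppm (-2.50 ± 0.570) and at 120 ppm (-1.73 ± 0.570). Acta1, the skeletal actin, also fell at both (-0.95 ± 0.188 and -0.85 ± 0.188), and Mylpf, a fast muscle light chain, fell at 120 ppm (-0.33 ± 0.146). The part of muscle tissue in the falls of Cox6a2, Cox7a1 and Cox8b was not tested.

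The remaining forms of complex IV subunits changed less. At 120 ppm Cox6a1 (-0.31 ± 0.0831), Cox6b1 (-0.38 ± 0.0879), Cox6b2 (-0.39 ± 0.124) and Cox8a (-0.33 ± 0.0953) fell, with adjusted p of 0.000320 to 0.00613 in the limma fit, and none of these 4 passed with the quartile range or the array axis as covariate. Cox7a2 (-0.15), Cox7a2l (-0.15), Cox7b2 (-0.15) and Cox8c (-0.25) did not pass the test with mouse 3 (adjusted p = 0.0779, 0.125, 0.0841 and 0.0779). With mouse 3 kept, these 4 passed after median centring (-0.22, -0.21, -0.22 and -0.32, adjusted p = 0.0197, 0.0447, 0.00820 and 0.0243), Cox7a2 (-0.18, adjusted p = 0.0390) and Cox8c (-0.55, adjusted p = 0.000239) after quantile normalization, and Cox7a2l (-0.24, adjusted p = 0.00841) with the mean of probe sets. Cox7b2 lay near the floor at 120 ppm, at 2.64 in mouse 3 and a mean of 2.76 in the other mice, below the array medians of 4.45 to 4.50. Cox7a2 fell without mouse 3 (-0.23 ± 0.0746, adjusted p = 0.00773). Cox5a and Cox5b, which have no other form among the members, differed from air by 0.12 and 0.11, and neither passed the test (adjusted p = 0.278 and 0.356).

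The comparison at 5 ppm held the most falls. At 5 ppm 20 members rose, 56 fell and 12 did not pass the test, beside 29.6% of all genes that rose and 47.4% that fell. The median difference was -0.40, beside -0.23 over all genes. The groups did not overlap for 67 of 88 members, beside 57.9% of all genes. Ndufs1 (2.32 ± 0.127), Atp5pb (2.11 ± 0.0980), Uqcrc2 (1.67 ± 0.149), Ndufs4 (1.51 ± 0.110), Sdha (1.48 ± 0.126) and Uqcrb (1.43 ± 0.0977), a small subunit of complex III, rose most. Cox4i2 (-2.08 ± 0.165), Ndufa4l2 (-2.08 ± 0.198), Uqcrc1 (-1.96 ± 0.140), Cox7a1 (-1.75 ± 0.531), Cox8b (-1.64 ± 0.496) and Cyc1 (-1.60 ± 0.132) fell most, with an adjusted p of 0.00370 or less for all 12. With the array axis as covariate 20 members rose and 4 fell, beside 6.57% and 9.67% of all genes, and of the 6 largest falls Uqcrc1 alone kept its call. Those of Cox4i2 (-0.80, adjusted p = 0.0760), Ndufa4l2 (-0.40, 0.495) and Cyc1 (-0.51, 0.148) were lost, and Cox7a1 (1.67, 0.342) and Cox8b (1.68, 0.286) turned in sign. With the quartile range as covariate 16 members rose and 27 fell, beside 13.6% and 20.6% of all genes, and the calls of Cox7a1 (adjusted p = 0.512) and Cox8b (0.635) were lost there too.

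In complex IV at 5 ppm 16 of 19 members fell and 1 rose, again Ndufa4 (0.95 ± 0.101), beside 47.4% and 29.6% of all genes. With the quartile range as covariate 3 of the 19 fell, and with the array axis 0. The 16 include Cox7b2 (-0.26), which lay near the floor, at 2.87 in its highest mouse, and overlapped with air. Its call was lost after quantile normalization (adjusted p = 0.0876) and with only the groups compared (0.0630). Cox8b was 7.34, 7.03, 6.72, 6.92 and 7.17 at 5 ppm, below the 8.14 to 9.43 of the air mice. Cox7a1 was 5.72, 5.33, 5.54, 5.68 and 5.81, below the 6.78 to 8.50 of the air mice. Cox6a2 fell by 0.94 ± 0.400 (adjusted p = 0.0339), and leaving out 1 mouse ended that call for air mouse 1 (adjusted p = 0.105), air mouse 3 (0.0563), and 5 ppm mice 1, 2 and 5 (0.0523, 0.0549 and 0.0504). In complex II at 5 ppm Sdha rose, while Sdhb (-1.03 ± 0.125) and Sdhc (-1.29 ± 0.114) fell and Sdhd differed by -0.05 (adjusted p = 0.706). Sdhb turned in sign with the array axis as covariate (0.0785, adjusted p = 0.860), and the call of Sdhc was lost there (-0.44, adjusted p = 0.173). Sdhd was called lower after quantile normalization (-0.42, adjusted p = 0.00259), and called higher against 1 ppm in place of air (0.39, adjusted p = 0.00307). The mean level of the pericyte and smooth muscle markers was 7.17 to 7.56 at 5 ppm, against 7.90 to 8.94 in air. Of these 7 markers 5 were lower and 1 higher, beside 47.4% and 29.6% of all genes. The part of this shift in the falls of Cox4i2 and Ndufa4l2 was not tested.

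Rises and falls were both found at the concentrations between. At 10 ppm 22 members rose and 46 fell, beside 29% and 37.4% of all genes, with 63 members that did not overlap with air beside 49.2% of all genes. At 20 ppm 28 rose and 38 fell, beside 29.4% and 34.2%, with 58 members apart beside 41.3%. At 40 ppm 27 rose and 41 fell, beside 28.6% and 36.2%, with 62 apart beside 47.6%. The medians of the members were -0.29, -0.18 and -0.22 at these concentrations, beside -0.14, -0.11 and -0.13 over all genes. The falls numbered 9, 9 and 12 with the array axis as covariate, beside 11.4%, 13.7% and 14.2% of all genes, and with the quartile range 21, 14 and 15, beside 16.4%, 14.7% and 15.5%. Ndufs1 (1.94, 1.92 and 2.05) and Atp5pb (1.83, 1.93 and 1.89) were among the 3 largest rises at each, and Cox4i2 (-1.55, -1.61 and -1.55) among the 3 largest falls.

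At 1 ppm few members were called. None rose and 2 fell by limma, beside 0.965% and 1.49% of all genes, and 2 of 88 did not overlap with air, beside 1.25% of all genes. At an unadjusted p under 0.05, 0 members were higher and 8 were lower, beside 5.44% and 10.1% of all genes. Sdhd was 5.52, 5.24, 5.51, 5.29 and 5.38 at 1 ppm, against 5.59, 5.78, 5.80, 5.99 and 6.00 in air (-0.44 ± 0.118, adjusted p = 0.0365), with no overlap. Ndufaf6, an assembly factor of complex I, was 4.78, 5.18, 5.16, 5.71 and 5.05, against 6.09, 5.57, 6.06, 5.82 and 5.38 in air (-0.61 ± 0.151, adjusted p = 0.0280), with overlap. The count of falls was 0 without air mouse 3 or 1 ppm mouse 2, and 1 without air mouse 1, 2, 4 or 5 or 1 ppm mouse 1 or 4.

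The 5 ppm group differed from the 10, 20 and 40 ppm groups in a comparison that does not use the air mice. Set against those 3 groups together, 46 of the 88 members were lower at 5 ppm and 5 were higher, beside 28.8% and 13.5% of all genes. The median difference was -0.23, beside -0.12 over all genes. In complex III 6 of 8 members were lower, and among the accessory subunits of complex I 16 of 26. Ndufa4l2 (-0.77 ± 0.162), Uqcrc1 (-0.67 ± 0.114) and Atp5d, the delta subunit of complex V (-0.57 ± 0.0784), fell most, with adjusted p of 0.000238 or less. Uqcrb (0.52 ± 0.0798), Ndufaf4 (0.51 ± 0.0918) and Ndufs1 (0.35 ± 0.104) rose most, with adjusted p of 0.00691 or less. The array axis was -1.41 to -1.04 at 5 ppm and -0.79 to 0.49 from 10 to 40 ppm, and with it as a covariate 1 member was lower and 2 were higher, beside 2.89% and 2.08% of all genes. The calls of Ndufa4l2 (-0.14, adjusted p = 0.700), Uqcrc1 (-0.22, adjusted p = 0.281) and Ndufs1 (0.13, adjusted p = 0.653) were lost in that fit. The part of the axis in the difference was not tested.

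The 120 ppm group was also set against the 10, 20 and 40 ppm groups together. None of the 88 members was called higher and none lower by limma, beside 0.0117% and 0.0819% of all genes. At an unadjusted p under 0.05, 3 were higher and 2 were lower, beside 4.47% and 6.27% of all genes, and Ndufs1 had the lowest adjusted p (0.32 ± 0.104, adjusted p = 0.245). Without mouse 3 the count of calls was also 0, with 0 higher and 13 lower at an unadjusted p under 0.05, beside 5.73% and 7% of all genes. The median of the members was then -0.10, beside -0.03 over all genes, and with mouse 3 it was 0.01, beside -0.02.

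A straight line over log2(ppm + 1) was fitted to all 35 mice. The slope was positive for 30 members and negative for 36 among those called, beside 30.9% and 41.8% of all genes. The rising slopes with the smallest adjusted p were those of Sdha (0.28 ± 0.0285 per unit), Ndufs4 (0.28 ± 0.0311) and Ndufs3 (0.13 ± 0.0148), a core subunit of complex I. The falling ones were those of Cox4i2 (-0.27 ± 0.0412), Ndufaf8 (-0.20 ± 0.0332) and Ndufs7 (-0.17 ± 0.0307), with an adjusted p of 9.96e-06 or less for all 6. With the array axis as covariate 40 members rose and 3 fell, namely these 3, beside 18.9% and 9.38% of all genes. With the quartile range 18 rose and 0 fell, beside 5.77% and 1.17%, and the calls of Cox4i2 (adjusted p = 0.168), Ndufaf8 (0.329) and Ndufs7 (0.578) were lost. The group means did not follow a straight line. For Sdha they were 8.03, 8.07, 9.51, 9.53, 9.53, 9.67 and 9.84 from air to 120 ppm in order of concentration, and for Uqcrc1 10.68, 10.85, 8.72, 9.39, 9.35, 9.45 and 9.42. The step between 1 and 5 ppm was larger than any other step in both.

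Probe sets of the same gene mostly moved together. At 120 ppm 33 members had at least 2 probe sets at or above a log2 level of 5.74, the median of all genes, and 32 of them had the same sign in all of these. The exception was Atp5o, the OSCP subunit of the stalk of complex V, at 0.37 in the brightest probe set and -0.14 in the other. When dimmer probe sets were counted too, 4 members held calls in opposite directions, namely Atp5c1, Ndufa12, Ndufb8 and Sdha. Sdha rose in both bright probe sets (1.81 and 2.03), and its 2 dim ones changed by -0.39 and 0.32.

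The other lists of mitochondrial genes also held members that rose and, apart from the citric acid cycle from 20 ppm up, members that fell. Of 14 citric acid cycle genes 10 rose and 0 fell at 120 ppm, beside 29.8% and 39.1% of all genes, and 7 rose and 3 fell at 5 ppm, beside 29.6% and 47.4%. At 20 and 40 ppm 9 rose and 0 fell in either comparison with air. Idh3a (2.19 ± 0.148) and Pdha1 (2.07 ± 0.144), which make NADH for complex I, and Fh1 (1.80 ± 0.136), the fumarase that follows complex II, had the smallest adjusted p at 120 ppm. Cycs, the cytochrome c between complexes III and IV, rose by 1.12 ± 0.140 at 120 ppm and by 1.10 at 5 ppm. Of 28 assembly factors of complexes II to V 10 rose and 11 fell at 120 ppm. Sdhaf4 (1.60 ± 0.0949), which helps to assemble Sdha, and Lrpprc (2.68 ± 0.185), which stabilises mitochondrial messenger RNA, rose, and Sdhaf2, which attaches the flavin to Sdha, rose by 1.29 ± 0.121.

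Of 73 mitochondrial ribosomal proteins 31 rose and 34 fell at 120 ppm, beside 29.8% and 39.1% of all genes. Among them Mrpl13 (1.56 ± 0.114) and Mrpl39 (1.36 ± 0.102) rose, and Mrpl54 (-1.66 ± 0.103) fell. Of 13 regulators of mitochondrial biogenesis 6 rose and 5 fell at 120 ppm, beside the same shares of all genes. Tfam, which packages mitochondrial DNA, rose by 1.10 ± 0.103, whereas Polrmt, the mitochondrial RNA polymerase, fell by 1.69 ± 0.136 and Esrra, a nuclear receptor of mitochondrial genes, by 1.40 ± 0.132. Across the 88 members the difference at 120 ppm had a Pearson correlation of 0.32 with the logarithm of gene length, beside 0.28 across 16935 genes. With promoter GC content it was 0.11 across 70 members, beside 0.02 across 13514 genes. These are descriptions across genes of the same libraries, and genes are not replicates.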

How the data were processed

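Whole lung RNA of 35 male CD-1 mice was hybridised to Affymetrix arrays. The authors deposited log2 probe set values, for which the submitters' processing notes name RMA and Partek with no version or role. Precision is set by the number of arrays, since arrays have no read depth. Of 45037 probe sets 28898 had 1 symbol, 551 several and 15588 none in the platform annotation. All 88 member symbols matched the reference by Entrez identifier. The members and lists were chosen with earlier results of these data known. The 3 promoter motifs, gene length and promoter GC content were chosen after member values had been seen.

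The brightest probe set of each of 17097 genes was fitted with limma 3.58.1 in R 4.3.3, with 7 group means and eBayes, tested on simulated data first, with a two-sided adjusted p under 0.05. A line over log2(ppm + 1) was fitted apart. Genes were named by rule: the 6 largest rises and falls at 120 and 5 ppm, 3 in each direction elsewhere, complex II, Cyc1, the subunits with tissue forms, and up to 3 genes of each other list by adjusted p. Others named were chosen after their values were seen. P-values measure the spread between the mice of a group. Alternatives were quantile normalization, median centring, the mean of probe sets, no dim genes, only the groups compared, and a trended and robust prior. Others were the array axis or quartile range as covariate, the mouse number as a block, and leaving out each mouse of the groups compared. The use of 1 ppm in place of air was added after seeing the data.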

Additional observations from a re-analysis of the deposited data

Results flagged for a closer look

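Values of the 36 named members were checked in each group of 5 mice for a mouse far from the other 4, by Dixon's ratio above 0.71. This singled out 29 of 252 groups, where chance gives about 12.6, and 16 of the 29 were mouse 3 of the 120 ppm group, always high. In that mouse the values were 12.11 for Cox4i1, 12.66 for Cox6a1, 9.92 for Cox6a2, 12.09 for Cox6b1, 7.39 for Cox6b2, 9.64 for Cox7a1, 11.01 for Cox8a, 11.24 for Cox8b, 10.82 for Cyc1, 11.84 for Ndufa4, 9.09 for Ndufs1, 10.12 for Ndufs3, 10.18 for Sdha, 11.0 for Sdhb, 10.04 for Uqcrc1 and 10.95 for Uqcrc2. Its brown fat, cardiac and fat markers were high too, and their part in these values was not tested.

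The other 13 were spread over 12 mice, and their number is close to the 12.6 that chance gives. The 36 genes were read in the same mice, so the 252 groups are not independent. At 40 ppm Cox8a was high in mouse 3 (10.82), Ndufs4 low in mouse 4 (7.92) and Uqcrb low in mouse 5 (9.02). At 10 ppm Ndufaf8 was high in mouse 3 (9.47). At 5 ppm Cox4i2 (4.93) and Uqcrc1 (9.1) were high in mouse 4, and Cox7b2 (2.87) was high in mouse 5. At 1 ppm Atp5d was low in mouse 1 (11.26), Cox8c high in mouse 3 (5.79) and Cox8a low in mouse 5 (10.67). In air Atp5g3 was high in mouse 3 (11.65), Ndufaf5 low in mouse 4 (4.22) and Cox8a low in mouse 5 (10.84).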

How the results depend on the processing

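Counts of members that rose against air from 5 to 120 ppm stayed within 1.5 times under every alternative, and those that fell did so under all but the 2 covariates. With the array axis as covariate the members that fell numbered 4, 9, 9, 12 and 4 at 5, 10, 20, 40 and 120 ppm, and with the quartile range 27, 21, 14, 15 and 16. The array axis and the quartile range do not overlap between air and 5 to 120 ppm, so these values are extrapolated, and the cause was not tested. For the trend the quartile range left 18 rising and 0 falling members (at the main setting 30 and 36) and the array axis 3 falling. For 5 ppm against 10 to 40 ppm the rises were 3 after median centring and 2 with either covariate, and the falls 1 with the array axis. At 1 ppm the falls were 0 after quantile normalization or with only the groups compared, and 1 after median centring, without dim genes or with the robust prior. Median centring moved the median of all genes by -0.10 at 5 ppm and by -0.07 at 120 ppm, and quantile normalization by 0.08 and 0.06.

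Leaving out 1 mouse gave 0 to 3 falls at 1 ppm, 19 to 20 rises and 50 to 56 falls at 5 ppm, 20 to 23 and 44 to 47 at 10 ppm, 28 to 28 and 35 to 41 at 20 ppm, 26 to 28 and 38 to 44 at 40 ppm, and 24 to 28 and 38 to 50 at 120 ppm. For 5 ppm against 10 to 40 ppm it gave 4 to 5 rises and 39 to 48 falls, and for the trend 28 to 30 and 33 to 43. Over all genes, deviations of mice with the same number in different groups had a mean correlation of 0.05 (-0.38 to 0.44), beside -0.01 for other pairs. Of 105 such pairs 46 lay above 0.1. Mouse 1 was the highest of its group for 41, 36, 52, 43 and 41 members in air and at 1, 10, 20 and 40 ppm. Over all genes these shares were 30.4%, 19.3%, 24.3%, 22.6% and 18.5%. At 5 and 120 ppm mouse 1 was the highest for 8 and 1 members. Whether the numbers stand for a shared order or batch was not tested. With the mouse number as a block, the replicate block, 20 members rose and 56 fell at 5 ppm, and 27 and 41 at 120 ppm, and it changed no call of a named gene.

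Signs turned with the array axis as covariate at 5 ppm for Cox7a1 (1.67), Cox8b (1.68), Sdhb (0.0785), Sdhd (0.12), Cox6a1 (0.0840), Cox6a2 (1.65), Cox6b2 (0.16), Cox7a2 (0.0909), Cox7a2l (0.12), Cox8a (0.18), Cox8c (0.15) and Atp5g1 (0.0546), and at 10 ppm for Cox7a1 (0.76). At 120 ppm they turned for Sdhb (0.18), Cox6a1 (0.0265), Cox6a2 (1.53), Cox6b2 (0.30), Cox7a1 (1.68), Cox7a2 (0.10), Cox7a2l (0.19), Cox8a (0.26), Cox8b (1.76), Cox8c (0.36) and Atp5g1 (0.13). With the quartile range they turned at 120 ppm for Cox6a2 (0.19), Cox7a2l (0.10), Cox8b (0.0926) and Cox8c (0.0891). Sdhd turned after quantile normalization at 120 ppm (-0.11) and against 1 ppm in place of air at 5 ppm (0.39).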
